A study of Bombus terrestris with 25 samples.

Results

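The genes described here make the machinery that folds new proteins and sends them into the endoplasmic reticulum. They were chosen by name alone: a gene was a member when its product name in the deposited table held 1 of 12 search words, such as heat shock, dnaJ, prefoldin, signal peptidase or disulfide-isomerase. The matching used no measured value, but the list was chosen with earlier results of these data known. It gave 34 of the 3861 genes in the table, and all 34 were among the 3793 genes kept by the filter on low counts. By product name they were 3 members of the Hsp90 family, 1 mitochondrial Hsp10, 1 heat shock factor-binding protein, 5 J-domain proteins, 5 prefoldin subunits, 4 subunits of the chaperonin CCT, 3 genes of the signal recognition particle and its receptor, 3 of the translocon, 3 of the signal peptidase, calnexin and 3 protein disulfide isomerases. The other 2, heat shock protein 67B2-like and T-complex protein 11-like protein 1, were matched by their words only and belong to none of these complexes. Hsp70 proteins, calreticulin and endoplasmin were not analysed here.

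Chaperones keep unfolded chains from clumping. J-domain proteins pass clients to Hsp70, Hsp90 finishes the folding of signalling proteins, and prefoldin hands new actin and tubulin to CCT. Proteins for export take another road: the signal recognition particle halts them on the ribosome and docks at its receptor, the Sec61 channel lets them through the membrane, signal peptidase cuts off the leader, and calnexin and the disulfide isomerases fold them inside. The insect fat body, which combines work of liver and adipose tissue, uses this road to release yolk proteins, storage proteins and blood proteins.

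The study measured polyA RNA from single mated queens of the bumble bee Bombus terrestris, in abdomens without gut that still carried the fat body. Of the 5 groups of 5 queens, mated queens were 5 to 10 days old, and CO2-treated queens had that age and were sampled 24 h after anaesthesia with pure CO2, given on the day of mating and again 24 h later. Diapause queens were sampled at the end of 9 to 10 weeks at 4 C, at 3 months of age by the sample labels and 2.5 by the series text. Founder post CO2 queens (1.5 months old) and founder post diapause queens (4 months old) had laid eggs and begun a colony in the month after the treatment, kept as all but diapause queens in warm, dark nest boxes with food. Each group held 1 queen from each of 5 genetic lines, line_207, line_296, line_51, line_191 and line_141, with line_426 in place of line_51 among mated queens.

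The 25 libraries held 534806 to 4057781 counts in the table; mated 2 (586405) and CO2-treated 3 (534806) were shallow and the other 23 held at least 2432559. Queens are called by group and replicate, as in mated 2. These 2 shallow libraries, from different groups and lines, were more alike than any other pair: with libraries thinned to 534622 counts, their chi-square per degree of freedom was 2.40, and the next pair had 5.56. Diapause 1 stood apart from its group. By the same measure its closest library was CO2-treated 5 (10.3), which was of another group but also of line_141. Fat body markers were present in every group, but hexamerin-like LOC100650745 had a median of 20479 CPM in mated and 39.9 in founder post CO2 queens, and vitellogenin-6-like 6936 CPM in diapause and 19.2 in founder post CO2 queens. CPM are counts per 1000000 of a library's scaled total in this table, which covers part of the transcriptome, so they are relative to these genes. In these abdomens, taken without gut, a lower value may come from fewer cells of a type or from less RNA per cell, which cannot be told apart.

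The members took 0.612 to 1.68% of a library's counts. The lowest shares, 0.612 to 0.652%, were those of diapause 2, 3 and 4, while diapause 1 had 1.40%. Per length of counted sequence, heat shock protein 83-like LOC100645524 had the highest level of all members, a mean of 930 CPM per kb over the 25 queens. Hsp83 is the fly name of cytosolic Hsp90. Translocon-associated protein subunit beta followed with 352, the other heat shock protein 83-like gene (LOC100645819) with 350 and protein disulfide-isomerase A6 with 325 CPM per kb, so that a cytosolic and a secretory gene stood side by side near the top. Heat shock protein 67B2-like was lowest at 5.76 CPM per kb. The members lay on 24 scaffolds and at most 4 of them on the same scaffold. The counted length of a member ran from 0.308 to 9.418 kb in 1 to 16 intervals, and 7 members had a single interval. These were protein disulfide-isomerase A3, with the shortest length, prefoldin subunit 1, LOC100645819 and heat shock factor-binding protein 1. The rest were the receptor subunit beta of the signal recognition particle, dnaJ C member 11 and heat shock protein 67B2-like.

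**Figure D1:**
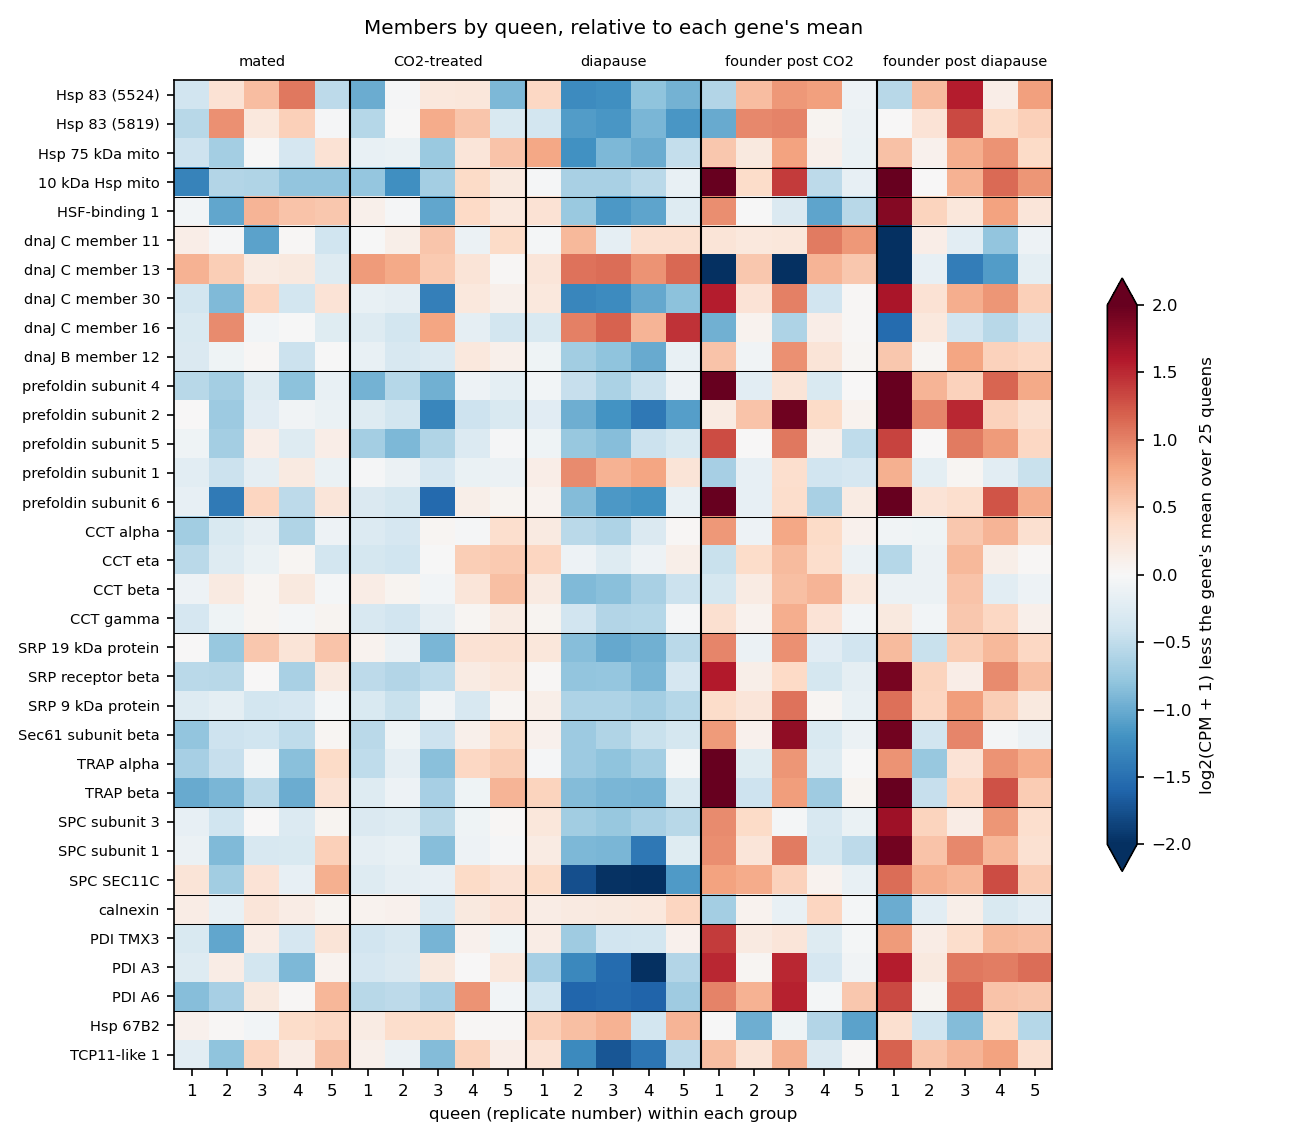
Each row is 1 of the 34 members and each column 1 queen; colour gives log2(CPM + 1) less the gene's mean over all 25 queens, and black lines divide groups and roles. Diapause 2, 3 and 4 are blue in most rows, diapause 1 is not, and founder post diapause 1 and founder post CO2 1 and 3 are the reddest columns.

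The group means followed an order. Founder post diapause queens had the highest mean of the 5 groups in 22 of 34 members (64.7%, against 34.2% of all tested genes), and diapause queens the lowest in 20 of 34 (58.8%, against 36.1%). Mated and CO2-treated queens had the highest mean of no member. Among single queens, the median over members of log2(CPM + 1) less the gene's mean was 1.00 in founder post diapause 1, 0.83 in founder post CO2 1 and 0.75 in founder post CO2 3. Over all tested genes these queens had -0.30, -0.07 and 0.11. Founder post diapause 1 also had the lowest TMM scaling factor, 0.605, which raises its CPM. Before scaling, members took 1.18% of its counts, the lowest share of its group. That share is a sum, in which LOC100645524, the member of highest level, weighs heavily. This gene had 4490 counts in founder post diapause 1 and 13273 to 26983 in the other 4 of its group. The low share therefore does not give the position of the other members before scaling. The part of scaling in the position of founder post diapause 1 was not tested. In diapause the median over members was 0.13 in diapause 1 and -0.28 to -0.80 in the other 4. Diapause 1 was the highest of its group in 27 of 34 members. The median SD between queens of a group on this scale was 0.38 to 0.41 over members in the 3 groups that were not founders, 0.64 in founder post CO2 and 0.53 in founder post diapause; over all tested genes the founders had 0.81 and 0.62. Founder queens differed more among themselves than other queens did, in members as in all genes.

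The comparison with the most calls was that of egg-laying founders with the diapause they came from. A gene was called at an adjusted p under 0.05 in edgeR's quasi-likelihood test, with Benjamini-Hochberg adjustment over all tested genes. By this rule any difference among the 5 groups was called in 26 members, beside 79% of all genes. Of the 34 members 25 were higher and 4 lower in founder post diapause than in diapause queens. In this comparison 80.9% of all tested genes were called, and the count of members is read against that: 40.2% were higher and 40.6% lower, against 73.5% and 11.8% of the members. The median log2 fold change was 1.19 over members and 0.28 over all genes. DESeq2 called 27 members higher and 3 lower, beside 83.8% of all genes, 43% higher and 40.7% lower. In 16 members every founder lay above every diapause queen and in 2 below; over all genes the groups did not overlap in 48.7%, 19.2% higher and 29.5% lower. Age, temperature, feeding and egg laying changed together here and cannot be told apart.

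Folding enzymes of the endoplasmic reticulum rose. Protein disulfide-isomerase A3 (LOC100648662), which in mammals works on glycoproteins beside calnexin, had 27.4, 17.4, 14.4, 10.1 and 28.9 CPM in diapause 1 to 5 and 132, 50.1, 91.9, 89.5 and 95.9 CPM in founder post diapause 1 to 5. Every founder was above every diapause queen. The gene was counted in a single interval of 0.308 kb. The log2 fold change was 2.22 ± 0.39 (SE; edgeR adjusted p = 5.61e-05). Protein disulfide-isomerase A6 (LOC100652249), which also makes and shuffles disulfide bonds, had 533, 234, 240.2, 232 and 433 CPM in diapause and 1775, 736, 1611, 1054 and 1027 CPM in founders. The groups did not overlap, with diapause 1 the nearest to the founders, and the gene rose by 1.89 ± 0.40 on the log2 scale (edgeR adjusted p = 0.000317). The membrane-bound isomerase TMX3 (LOC100643677) rose by 0.76 ± 0.31 (edgeR adjusted p = 0.0274), a call that was lost without diapause 2, 3 or 4 or founder post diapause 1 (adjusted p 0.0555 to 0.0949).

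Calnexin (LOC100643471), the membrane lectin that holds glycoproteins while they fold, went the other way. It had 412, 421, 425, 433 and 500.4 CPM in diapause and 187, 322, 406, 300.5 and 323 CPM in founders. All 5 founders were below all 5 diapause queens, although by little, and the log2 fold change was -0.51 ± 0.23 (edgeR adjusted p = 0.0458). The call was near the threshold: it was lost with no filter on low counts, with only the 2 groups fitted, with the genetic line as a block (adjusted p = 0.0709) and when any 1 of 18 libraries was left out (0.0524 to 0.0959), among them all 5 diapause queens and founder post diapause 1, 2, 4 and 5.

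All 3 signal peptidase genes rose. The catalytic subunit SEC11C (LOC100651331) had 59.7, 12.8, 10.8, 9.30 and 20.2 CPM in diapause and 101, 76.3, 72.8, 114 and 65.4 CPM in founders. Diapause 1 was far above the other diapause queens, yet all founders were above it, and the log2 fold change was 1.92 ± 0.41 (edgeR adjusted p = 0.000313). Subunit 1 (LOC100643201) went from 26.7 to 83.02 to 91.8 to 284 CPM with no overlap (1.58 ± 0.38, edgeR adjusted p = 0.000804). In subunit 3 (LOC100642206) diapause 1, at 327 CPM, lay above the lowest founder, at 309 CPM, and the log2 fold change was 1.25 ± 0.30.

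Genes that bring proteins to the membrane rose as well. Signal recognition particle 9 kDa protein (LOC100651867), part of the domain that pauses translation, had 55.1, 32.6, 32.8, 31.4 and 33.9 CPM in diapause and 110.0, 68.9, 91.5, 71.4 and 57.9 CPM in founders, without overlap (log2 fold change 1.10 ± 0.26, edgeR adjusted p = 0.000667). The beta subunit of the receptor (LOC100649483), its membrane anchor, rose by 1.47 ± 0.37 and the 19 kDa protein (LOC100648261), which helps the particle assemble, by 0.95 ± 0.34. At the channel, translocon-associated protein subunit beta (LOC100650833) had 257, 103, 99.7, 98.4 and 153 CPM in diapause and 936, 137, 252, 455 and 269 CPM in founders. Founder post diapause 1 was the highest and founder post diapause 2 and 3 lay within the diapause range. The log2 fold change was 1.52 ± 0.53 (edgeR adjusted p = 0.0122), or 0.92 without founder post diapause 1, when the call was lost (0.102). Sec61 subunit beta (LOC100645405), a small part of the channel itself, rose by 1.13 ± 0.41, or by 0.52 with an adjusted p of 0.195 without that queen. Translocon-associated protein subunit alpha (LOC100646350) rose by 0.94 ± 0.42 with an adjusted p of 0.0454; leaving out 1 of 10 libraries, among them diapause 2, 3 and 4 and founder post diapause 1, 3, 4 and 5, ended that call (0.0507 to 0.118).

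**Figure D2:**
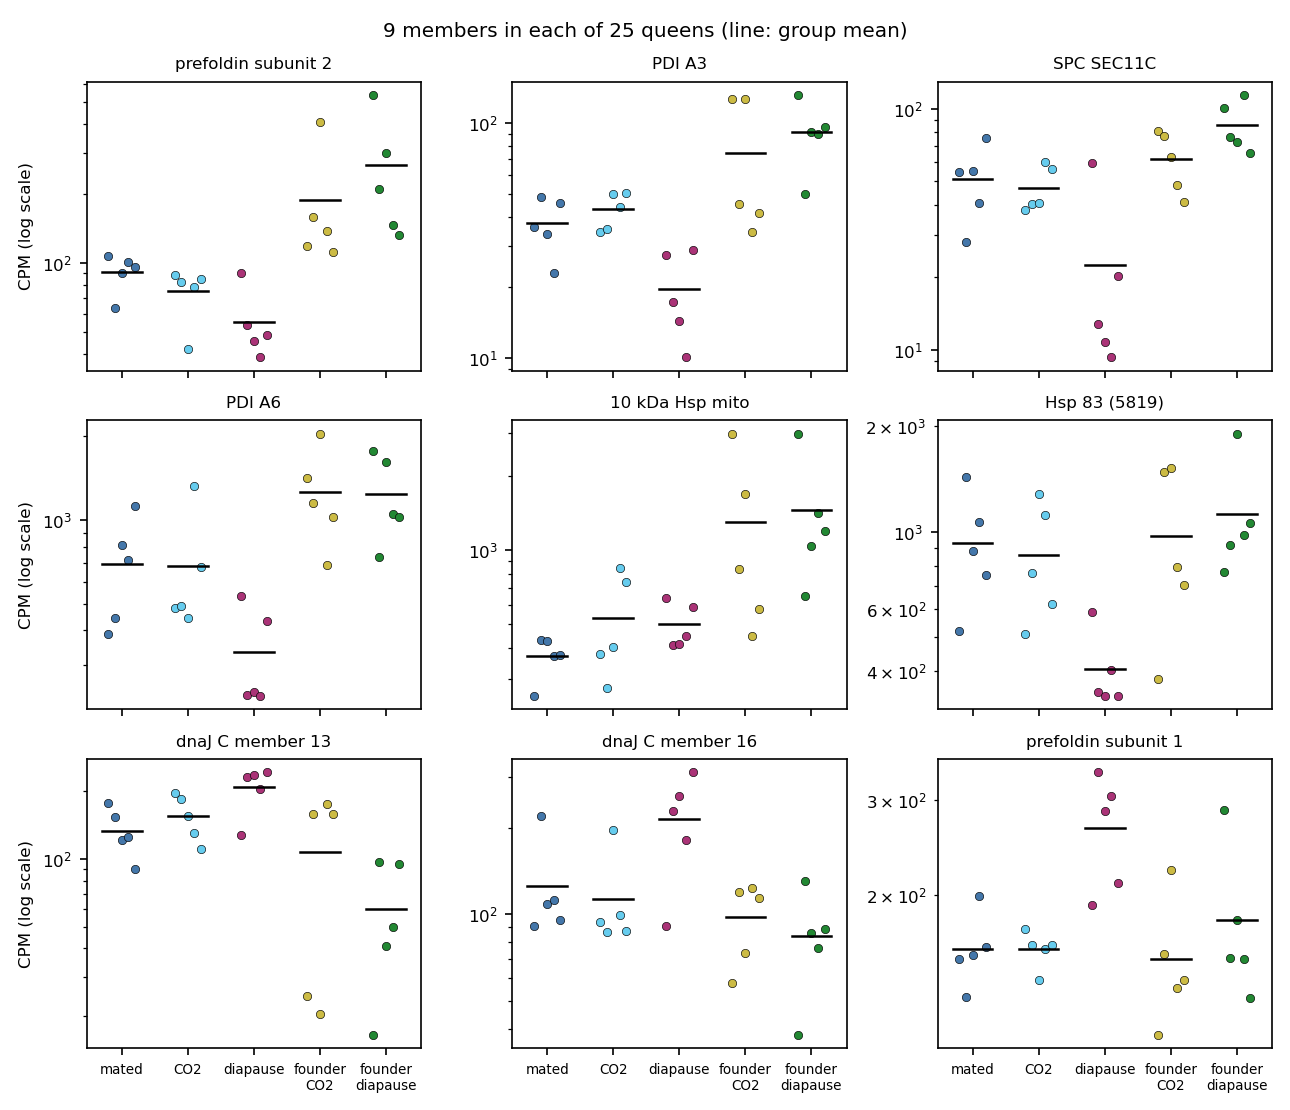
Each point is 1 queen, on a log scale of CPM, for 9 members in the 5 groups; the line is the group mean. In prefoldin subunit 2, both disulfide isomerases and SEC11C all founder post diapause queens are above all diapause queens, and dnaJ C member 13 shows the reverse.

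Of the cytosolic chaperones, prefoldin subunit 2 (LOC100646096) had the largest log2 fold change of all members. It had 90.6, 53.5, 45.6, 38.8 and 48.8 CPM in diapause and 539, 209, 302, 146 and 133 CPM in founder post diapause queens. The lowest founder exceeded the highest diapause queen, diapause 1. The log2 fold change was 2.26 ± 0.40 (edgeR adjusted p = 6.37e-05). Of the other 4 prefoldin subunits, 6 (LOC100651503) rose by 1.73 ± 0.51, 4 (LOC100643766) by 1.45 ± 0.39 and 5 (LOC100646113) by 1.28 ± 0.33, all without overlap between the groups. Subunit 1 (LOC100650223) did not rise with its partners in the complex: it had 191.4, 337, 286, 304 and 211 CPM in diapause and 288, 153, 179, 152 and 129 CPM in founders. The groups overlapped, and the log2 fold change was -0.56 ± 0.25 (edgeR adjusted p = 0.0393). That call was lost with DESeq2, with DESeq2 size factors, with only the 2 groups fitted (0.0555), with the line as a block (0.0526) and without diapause 2, 3 or 4 or founder post diapause 2, 3, 4 or 5 (0.0623 to 0.106). Without founder post diapause 1 it held, and the log2 fold change was -0.86 (0.00399).

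Of the 4 subunits of CCT, which takes substrates from prefoldin, edgeR called 1 and DESeq2 called 3. Subunit alpha (LOC100646058) had 301 to 521 CPM in diapause and 436 to 736 CPM in founders, and its log2 fold change of 0.52 ± 0.26 did not pass edgeR's test (adjusted p = 0.0625; 0.0168 with DESeq2). Subunit gamma (LOC100652074) rose by 0.53 ± 0.23 (edgeR adjusted p = 0.0356; 0.00189 with DESeq2). The edgeR call was lost with only the 2 groups fitted (0.163), with the line as a block (0.0541) and without mated 4, diapause 2, 3 or 4 or founder post diapause 1, 3 or 4 (0.0694 to 0.118). Subunit beta (LOC100649498) had 0.51 ± 0.25, called by DESeq2 (0.0272) and not by edgeR (0.0654), and eta (LOC100649377) had 0.04 ± 0.27, called by neither. Whether the complexes differed in their change was not tested.

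The Hsp90 genes were higher in founders. Heat shock protein 83-like LOC100645819 had 589.9, 349, 338, 403 and 339 CPM in diapause and 765, 918, 1907, 981 and 1060.2 CPM in founders, with no overlap. Its log2 fold change was 1.48 ± 0.38 (edgeR adjusted p = 0.00154). Its near relative LOC100645524 had 4121, 1285, 1311, 1769.7 and 1602 CPM in diapause and 2110.0, 4802, 9182, 3383 and 5426 CPM in founders; diapause 1 was above 2 of the 5 founders. The log2 fold change was 1.3 ± 0.45 (edgeR adjusted p = 0.0120), or 0.93 with an adjusted p of 0.0649 without founder post diapause 3. How the authors' counting treated reads shared by these similar genes was not given in the sources used here, so their separate values are uncertain. Mitochondrial Hsp75 (LOC100648632), known as TRAP1 in mammals, rose by 0.92 ± 0.34; the call was lost with only the 2 groups fitted (0.0804) and without diapause 2 or 5 (0.0533 and 0.0585), while without diapause 1 the value was 1.45. The mitochondrial 10 kDa heat shock protein (LOC100646003), lid of the Hsp60 chaperonin, had 637, 410.5, 413, 446 and 584 CPM in diapause and 2974, 652, 1042, 1411 and 1193 CPM in founders. The groups did not overlap but nearly met, and founder post diapause 1 was far above the rest (log2 fold change 1.55 ± 0.46, edgeR adjusted p = 0.00439). Heat shock factor-binding protein 1 (LOC100647209), a negative regulator of the heat shock response in mammals and nematodes, had 98.1 to 267 CPM in diapause and 255 to 786 CPM in founders (1.34 ± 0.41); without founder post diapause 1 the value was 0.88 and the call was lost (0.0552).

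J-domain proteins split. DNAJC30 (LOC100645838), mitochondrial in mammals, had 124, 42.4, 44.0, 51.9 and 59.9 CPM in diapause and 335, 129.9, 177, 197 and 149 CPM in founders, without overlap (log2 fold change 1.61 ± 0.40, edgeR adjusted p = 0.00114). DNAJB12 (LOC100648038), which sits in the endoplasmic reticulum membrane in mammals, rose by 0.97 ± 0.25, also without overlap. DNAJC13 (LOC100643888), in nematodes and mammals a co-chaperone of endosomes, had 128, 232, 237, 204 and 243 CPM in diapause and 16.4, 97.0, 40.8, 49.7 and 94.5 CPM in founders. All founders were below all diapause queens, and the gene fell by 1.80 ± 0.50 on the log2 scale (edgeR adjusted p = 0.00249). DNAJC16 (LOC100647075) had 90.9, 229, 258, 181 and 311 CPM in diapause and 38.1, 131, 86.1, 76.2 and 89.3 CPM in founders. Diapause 1, far below its group, was the only diapause queen within the founder range, and the gene fell by 1.35 ± 0.36 (edgeR adjusted p = 0.00206). DNAJC11 (LOC100642273), measured by a single interval with at most 13.4 CPM in any queen, had -0.78 ± 0.41 and was not called. Of the genes matched by words only, T-complex protein 11-like protein 1 (LOC100650961) rose by 1.48 ± 0.36, and heat shock protein 67B2-like (LOC100650694) had -0.70 ± 0.34 and was not called.

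Other measures moved with this comparison. Of 22 gut markers 13 were higher and 1 lower in founder post diapause queens, and the summed level of these markers was 2516 to 8250 CPM in diapause and 4940 to 45544 CPM in founders. The medians were 3888 and 10593 CPM, so the highest founder sum was far above the middle one. All marker lists were made by words in product names alone, so they can hold genes of other tissues. The gut list holds a chymotrypsin inhibitor-like gene (LOC100645263), which is no digestive enzyme. That gene had 814 to 3117 CPM in diapause and 2282 to 5841 CPM in founders, so the sums are not of gut enzymes alone. Of 7 muscle markers 1 was higher and 4 lower, with sums of 13056 to 34633 and 5498 to 12275 CPM. Of 4 hemocyte markers 0 were higher and 3 lower, with sums of 703 to 1938.5 and 470.0 to 1090.7 CPM, and of 3 tested neuron markers 0 and 2, with sums of 109 to 295 and 38.7 to 70.5 CPM. Oenocyte markers, genes of wax and hydrocarbon synthesis, had 7 higher and 5 lower of 16 tested, with sums of 1060 to 5817 and 10653 to 21121 CPM. Of 4 fat body markers 1 was higher, the vitellogenin receptor-like gene, which also marks the ovary, and 2 were lower. The sums of the 5 germ line and ovary markers were 526 to 1159 CPM in diapause and 859 to 1621 CPM in founders, with 2 higher and 2 lower. The log2 ratio of 3' to 5' coverage over 437 genes was 0.0762 to 0.110 in diapause and -0.136 to 0.0951 in founders. Founder post diapause 1 alone held the 0.0951, and the other 4 founders, at -0.136 to -0.0223, did not overlap diapause. Their part in the result was not tested. With the 2 shallow libraries and diapause 1 left out, 27 members were higher and 4 lower, beside 84.7% of all genes called, 43.2% higher and 41.5% lower. Leaving out diapause 1, the highest of its group in most members, by itself raises the difference in those.

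**Figure D3:**
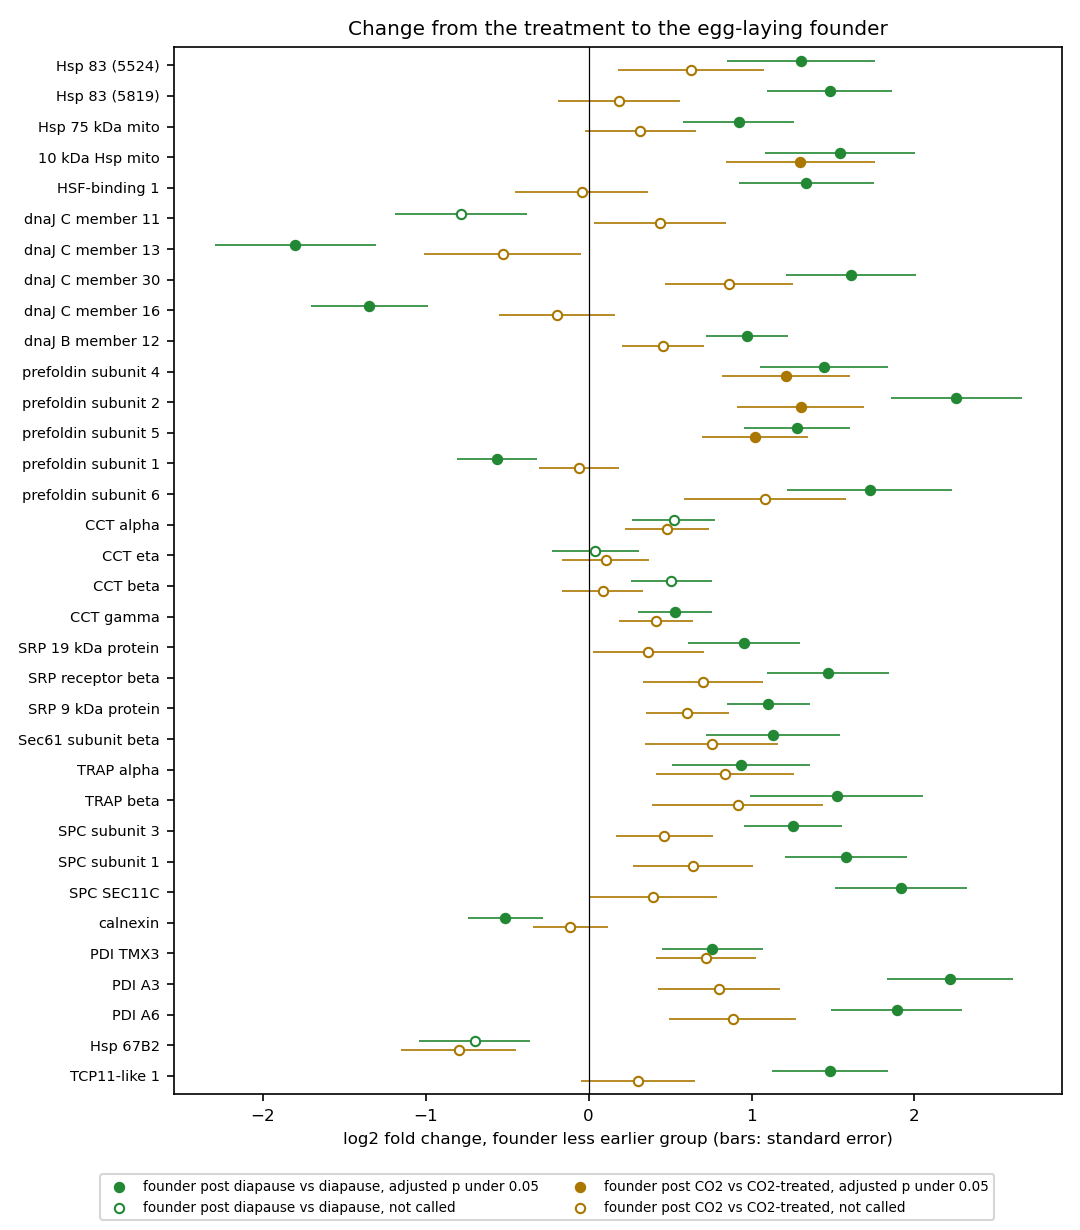
Log2 fold change of each of the 34 members from diapause to founder post diapause (green) and from CO2 treatment to founder post CO2 (ochre), with the standard error as a bar; filled points have an edgeR adjusted p under 0.05. Most green points are filled and right of 0, and 4 ochre points are filled.

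After CO2 treatment the change to founder was called in few members. In founder post CO2 against CO2-treated queens 4 of 34 members were higher and 0 lower, 11.8%, while 28.3% of all tested genes were called, 14.8% higher and 13.6% lower. The share of members with a call was thus no greater than that of all genes. The median log2 fold change was 0.47 over members and 0.07 over all genes. All 4 calls were cytosolic or mitochondrial folding factors: prefoldin subunits 2, 4 and 5 and the 10 kDa heat shock protein. EdgeR called none of the 13 secretion genes. DESeq2 called 8 members, beside 35.7% of all genes: these 4, CCT subunit gamma and 3 secretion genes, namely protein disulfide-isomerase A6 (0.92, DESeq2 adjusted p = 0.0422), TMX3 (0.77, 0.0424) and signal recognition particle 9 kDa protein (0.64, 0.0432). Whether folding factors and secretion genes differed in their change was not tested.

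Prefoldin subunit 2 had 88.2, 82.2, 42.2, 78.9 and 85.2 CPM in CO2-treated 1 to 5 and 119, 158, 409, 138 and 111 CPM in founder post CO2 1 to 5. It was the only member whose founders were all above their CO2-treated group; 2 of 34 members did not overlap, 1 of them lower, beside 16% of all genes, 4.77% higher and 11.2% lower. The log2 fold change was 1.3 ± 0.39 (edgeR adjusted p = 0.0191, or 0.0306 with the line as a block), and 0.76 with an adjusted p of 0.138 without founder post CO2 3. Without CO2-treated 3 it was 1.14 with 0.0528. Prefoldin subunit 4 had 80.0, 105, 79.6, 146 and 136 CPM and 666, 134, 186, 126 and 157 CPM. Founder post CO2 1 was far above the other founders of its group, and the log2 fold change of 1.21 ± 0.39 (edgeR adjusted p = 0.0272) was 0.46 without it (0.278). Prefoldin subunit 5 had 34.2 to 63.5 and 44.8 to 160.4 CPM and rose by 1.02 ± 0.33 (edgeR adjusted p = 0.0258). The 10 kDa heat shock protein had 379, 275, 404, 843 and 739.8 CPM and 2954, 838, 1696, 448 and 574 CPM, and rose by 1.3 ± 0.46 (edgeR adjusted p = 0.0377), or by 0.75 without founder post CO2 1 (0.231). Founder post CO2 2, 4 and 5 lay within the CO2-treated range in that gene.

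These 4 calls were near the threshold. With the line as a block 1 was left, prefoldin subunit 2, beside 19.8% of all genes, and the others had adjusted p of 0.0522 to 0.0609. No member was called when only the 2 groups were fitted, nor without CO2-treated 3, when 544 of all tested genes were called. Without CO2-treated 1 or 2 it was 1 member, beside 591 and 561 genes. Without founder post CO2 1 or 3 it was also 1, beside 491 and 552 genes. Without founder post CO2 4 it was 9, beside 35.3% of all genes. Without the 2 shallow libraries 1 member was called, beside 15.8% of all genes. In 12 of the 13 secretion genes the log2 fold change was above 0, and it was -0.11 ± 0.23 in calnexin. By edgeR they were not called: 0.88 ± 0.39 in protein disulfide-isomerase A6 (edgeR adjusted p = 0.0836), 0.80 ± 0.37 in A3 (0.0976), 0.92 ± 0.52 in translocon-associated protein subunit beta (0.169) and 0.39 ± 0.39 in SEC11C (0.424). In A3 the founders fell into a high pair, founder post CO2 1 and 3 at 127 and 126 CPM, and 3 queens at 34.5 to 45.2 CPM, within or below the CO2-treated range of 34.5 to 50.6 CPM. The same pair had the lowest DNAJC13, 24.6 and 20.5 CPM against 159 to 175 CPM in the other 3. The pair also stood apart in coverage, with a 3' to 5' log2 ratio of 0.0717 and 0.0620 against -0.151 to -0.101 in the other founder post CO2 queens. Of 22 gut markers 5 were higher and 0 lower in founder post CO2 than in CO2-treated queens, with sums of 5296 to 13020 and 4012 to 20845 CPM. The medians of these sums were 10614 and 4339 CPM. The chymotrypsin inhibitor-like gene on that list had 1072 to 3893 and 489 to 2687 CPM. Of 7 muscle markers 0 were higher and 3 lower (1562 to 11288 and 16411 to 25709 CPM), and of 3 tested neuron markers 0 and 3 (28.7 to 128 and 161 to 298 CPM). Of 16 tested oenocyte markers 1 was higher and 6 lower, although the summed level was 5663 to 21415 and 3475 to 7446 CPM. Fat body had 2 higher and 1 lower of 4, hemocytes 0 and 1 of 4, and germ line and ovary 1 and 0 of 5. The fat body list holds the vitellogenin receptor-like gene, which also marks the ovary. It had 856 to 3666 CPM in founder post CO2 and 59.0 to 354 CPM in CO2-treated queens. The part of coverage and markers in the result was not tested.

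Founders of the 2 routes were then set against each other. Between founder post diapause and founder post CO2 queens 0 of 34 members were called and 0% of all tested genes by edgeR. DESeq2 called 0 members and 0.132% of all genes. It gave no adjusted p for most of the 34 members, and genes without one counted as not called. Among them were DNAJC11, DNAJC13, SEC11C, protein disulfide-isomerase A3 and prefoldin subunits 1, 2, 4, 5 and 6. The 0 of DESeq2 thus covers only the remaining members. At an unadjusted p under 0.05 in edgeR there were 2 members and 273 genes. The 2 members were DNAJC11 (-1.15 ± 0.41) and heat shock factor-binding protein 1 (0.89 ± 0.41). DNAJC11 was also the 1 member whose groups did not overlap, beside 0.290% of all genes, with 0.470 to 6.70 CPM in founder post diapause and 7.12 to 13.4 CPM in founder post CO2 queens. Protein disulfide-isomerase A6 had a log2 difference of -0.03 ± 0.39, and prefoldin subunit 2 of 0.51 ± 0.38. With SEs of 0.23 to 0.52, differences of the size seen here could not be told from 0.

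The change along each route was then compared directly, by subtracting the log2 change after CO2 treatment from the log2 change after diapause. By edgeR 0 members were called, beside 2.43% of all genes, 0.0791% higher and 2.35% lower. SEC11C had the largest value, 1.52 ± 0.56 (adjusted p = 0.0958), followed by protein disulfide-isomerase A3 with 1.42 ± 0.53 (0.0996), and DESeq2 called these 2, beside 12.8% of all genes (0.0487 and 0.0499). Without diapause 1 edgeR called 7 members, all with the larger rise after diapause, beside 26.5% of all genes. Without the 2 shallow libraries and diapause 1 it called 12, 11 with the larger rise after diapause and DNAJC16 with the larger fall, while 36.6% of all genes were called, 17.6% higher and 19.1% lower, so that the share of members was near that of all genes. Under that fit SEC11C had 2.41 ± 0.40 (edgeR adjusted p = 0.000355), T-complex protein 11-like protein 1 1.85 ± 0.36 and heat shock factor-binding protein 1 1.92 ± 0.48. Diapause 1 was the highest diapause queen in each of these members, so leaving it out by itself raises these values. With diapause 1 kept, edgeR called 3 members without founder post CO2 1, beside 784 of all tested genes. It called 1 without founder post CO2 3, beside 553 genes.

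In diapause 22 of 34 members had a log2 fold change below 0 against mated queens and 35.3% had one above 0, beside 49.1% of all genes. Of the 34, 0 were called by edgeR, beside 5.69% of all genes, 3.66% higher and 2.03% lower. DESeq2 called 3, beside 12% of all genes. Heat shock protein 83-like LOC100645819 had 519, 1431, 879, 1062 and 750.4 CPM in mated 1 to 5 and the diapause values given above. Only diapause 1 reached into the mated range, and the log2 fold change was -1.20 ± 0.38 (edgeR adjusted p = 0.0588; 0.0180 with DESeq2). SEC11C had 54.6, 28.0, 55.3, 40.6 and 75.6 CPM in mated queens, above diapause 2 to 5 in every case, and -1.17 ± 0.40 (edgeR adjusted p = 0.0778). Protein disulfide-isomerase A6 had -1.06 ± 0.39 and A3 -0.92 ± 0.38, with mated values of 389 to 1118 and 23.0 to 48.6 CPM. Prefoldin subunit 1 was on the other side: mated queens had 152, 129.5, 155, 199 and 160.1 CPM, the log2 fold change was 0.74 ± 0.25 (edgeR adjusted p = 0.0722), and 4 of 5 diapause queens were above all mated queens. No member had groups without overlap, beside 3.03% of all genes.

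The number of calls changed most without diapause 1, when edgeR called 11 members, 1 higher and 10 lower, beside 24.1% of all genes, 10% higher and 14.1% lower. Without it and the 2 shallow libraries it called 14, 2 higher and 12 lower, beside 31.5% of all genes, 13.6% higher and 17.9% lower. Without founder post CO2 1 it called 2, beside 326 of all tested genes. It called 1 without mated 2 or founder post diapause 1, beside 289 and 324 genes. Diapause 1 was the highest of its group in 27 of 34 members, so leaving it out by itself lowers the diapause mean in those. Calls made without it are no independent support for a fall in diapause. With the 3 libraries left out the median log2 fold change was -0.54 over members and -0.03 over all genes. In the same fit SEC11C fell by 2.15 ± 0.31 on the log2 scale (edgeR adjusted p = 5.98e-05), T-complex protein 11-like protein 1 by 1.52 ± 0.27, protein disulfide-isomerase A6 by 1.48 ± 0.39, signal recognition particle 19 kDa protein by 1.26 ± 0.27 and DNAJC30 by 1.21 ± 0.33. Prefoldin subunit 1 (0.72 ± 0.25) and DNAJC16 (1.21 ± 0.35) rose. None of the 3 translocon genes was called, nor calnexin. The 3' to 5' log2 ratio was 0.0762 to 0.110 in diapause and -0.0751 to 0.0481 in mated queens, with no overlap. Of 16 tested oenocyte markers 0 were higher and 7 lower in diapause, with sums of 1060 to 5817 CPM and 3901 to 7026 CPM in mated queens. Of 3 tested neuron markers 0 were higher and 1 lower (109 to 295 and 178 to 585 CPM), and no marker of the other 5 lists was called. The part of coverage and markers in the result was not tested. Diapause 1, at 0.0969, lay within its group in coverage.

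**Figure D4:**
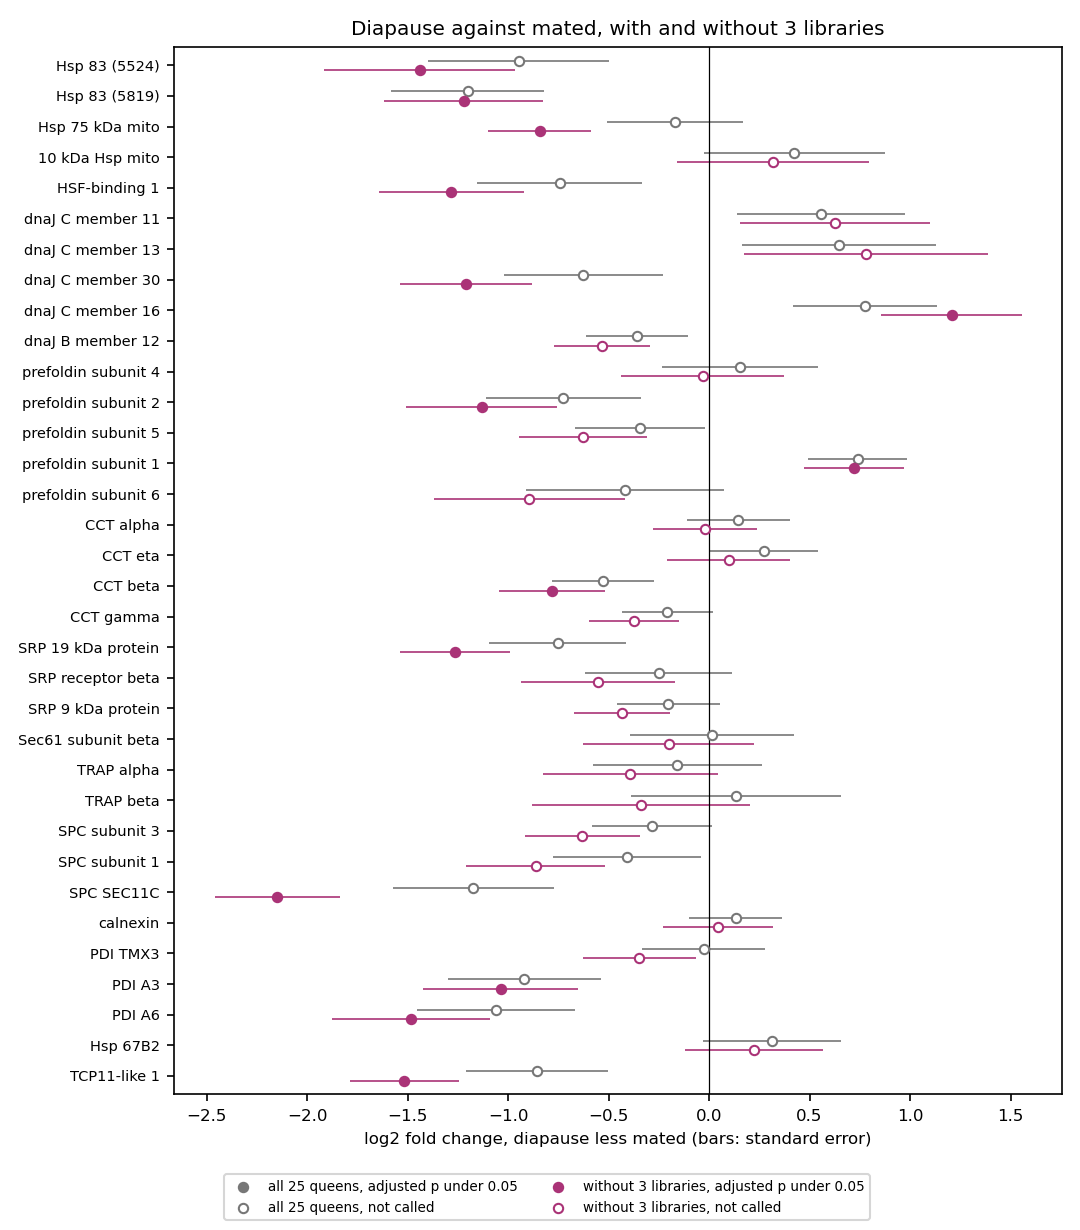
Log2 fold change of each of the 34 members in diapause against mated queens, with the standard error as a bar, from all 25 queens (grey) and without the 2 shallow libraries and diapause 1 (purple); filled points have an edgeR adjusted p under 0.05. No grey point is filled, and of 14 filled purple points 12 lie left of 0.

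Diapause against CO2-treated queens shared the diapause libraries and gave 0 calls too, beside 6.43% of all genes, 5.64% higher and 0.791% lower. DESeq2 called 4, beside 13.4% of all genes. Here 2 members did not overlap, beside 2.66% of all genes. Prefoldin subunit 1 had 173, 161, 139, 159 and 161 CPM in CO2-treated queens, all below the lowest diapause queen at 191.4 CPM (log2 fold change 0.74 ± 0.25, edgeR adjusted p = 0.0650). Protein disulfide-isomerase A3 had 34.5, 35.5, 50.0, 44.2 and 50.6 CPM, all above the highest diapause queen at 28.9 CPM (-1.12 ± 0.38, edgeR adjusted p = 0.0697). SEC11C had -1.05 ± 0.40 and LOC100645819 -1.09 ± 0.38. Without diapause 1 edgeR called 12 members, 2 higher and 10 lower, beside 28.7% of all genes, 13.1% higher and 15.6% lower. Without it and the shallow libraries it called 13, 2 higher and 11 lower, beside 36.5% of all genes, 15.9% higher and 20.6% lower. Here too, leaving out diapause 1 by itself lowers the diapause mean in most members. The 3' to 5' ratio of CO2-treated queens, -0.138 to 0.00920, did not overlap that of diapause. Of the oenocyte markers 2 were lower in diapause, and 1 fat body and 1 germ line marker were higher. The part of either in the result was not tested. With diapause 1 kept, edgeR called 3 members without founder post CO2 1, beside 367 of all tested genes. It called 1 without founder post CO2 3 or founder post diapause 1, beside 346 and 378 genes.

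A day after CO2 treatment no member differed from mated queens of the same age by more than the test required. EdgeR called 0 members, beside 0.395% of all genes, no member had an unadjusted p under 0.05, and DESeq2 called 0 members and 1.11% of all genes. The log2 fold changes ran from -0.53 (LOC100645524, SE 0.45) to 0.52 (translocon-associated protein subunit beta, SE 0.52), with a median of -0.02. Prefoldin subunit 2 had -0.28 ± 0.39, SEC11C -0.12 ± 0.39 and protein disulfide-isomerase A6 -0.03 ± 0.39. In LOC100645819 the CO2-treated queens had 511, 762, 1277, 1119 and 619 CPM, across the same range as the mated queens. Of the oenocyte markers 3 were lower in CO2-treated queens, and 1 fat body marker. No member had groups without overlap, beside 0.975% of all genes. A change no larger than these SEs was not detectable with 5 queens a group.

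Other genes of the same pathway, found by a second list of names and with examples chosen after their values were seen, were counted in the same way. Of 52 such genes, which include 1 matched only by its letters (tramtrack), 36 were higher and 7 lower in founder post diapause than in diapause queens, with a median log2 fold change of 1.26, beside 40.2% and 40.6% of all tested genes and a median of 0.28. The pathway genes were thus called in 82.7% and all genes in 80.9%. The subunit ostc-B of oligosaccharyltransferase (LOC100650741), which adds sugar chains to proteins in the endoplasmic reticulum, had 2.50 ± 0.53 (edgeR adjusted p = 0.000321). The cargo receptor emp24 bai-like (LOC100645274) had 2.29 ± 0.45, derlin-1-like (LOC100645953), part of the exit road for misfolded proteins, 2.21 ± 0.47, and the receptor that returns escaped proteins to the endoplasmic reticulum (LOC100649220) 1.93 ± 0.40. Among peptidyl-prolyl isomerases, enzymes that turn proline bonds, D-like (LOC100650941) had 2.49 ± 0.42 and the 1-like gene (LOC100647376) -2.21 ± 0.42. The coat of vesicles that return to the endoplasmic reticulum was uneven: coatomer subunits zeta (LOC100642659, 1.82 ± 0.37) and delta (LOC100645041, 1.10 ± 0.37) rose, while both entries named coatomer subunit alpha (LOC100647326 and LOC100648009) fell, by 1.43 ± 0.34 and 1.48 ± 0.38 on the log2 scale. Endoplasmic reticulum aminopeptidase 2-like (LOC100645619) fell by 2.75 ± 0.49.

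In founder post CO2 against CO2-treated queens 10 of the 52 genes were higher and 1 lower, with a median of 0.57. That is 21.2% called, beside 28.3% of all genes, 14.8% higher and 13.6% lower, with a median of 0.07. They included peptidyl-prolyl isomerase D-like (1.73), emp24 bai-like (1.37), derlin-1-like (1.25) and SEC62-like (LOC100647058, 1.17), another part of the membrane channel, and the lower gene was endoplasmic reticulum aminopeptidase 2-like (-1.82). Against mated queens 1 of 52 was called in diapause, beside 5.69% of all genes. It was dolichyldiphosphatase 1-like (LOC100643712), which recycles the lipid carrier of sugar chains. It was higher in diapause by 1.63 ± 0.30 (edgeR adjusted p = 0.00208) and against CO2-treated queens by 1.23, and it was lower in founder post diapause than in diapause queens (-1.13 ± 0.30). The list shares its samples with the members and is no independent test.

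**Figure D5:**
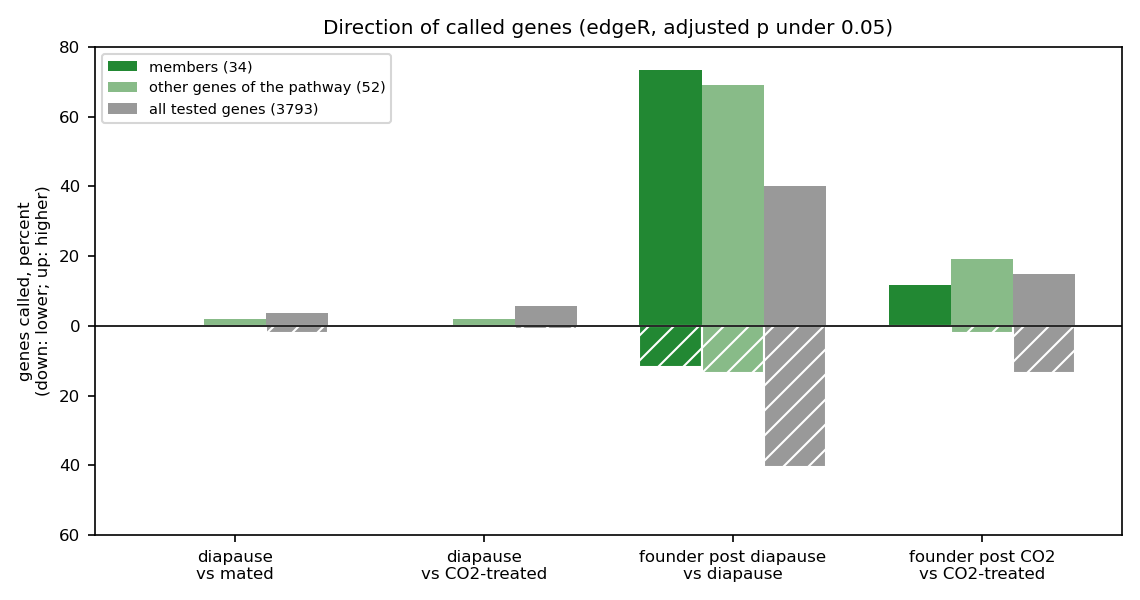
Bars give the percentage of genes called higher (up) and lower (down, hatched) by edgeR in 4 comparisons, for the 34 members, the 52 other genes of the pathway and all 3793 tested genes. In founder post diapause against diapause 73.5% of members are higher and 11.8% lower, beside 40.2% and 40.6% of all genes.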

How the data were processed

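PolyA RNA was measured in 25 queens, 5 in each of 5 groups, and each library came from 1 queen. The deposited table holds raw read counts, whole numbers per exon-sized interval, made by the authors. The submitters' processing notes name DESeq, TopHat and Trimmomatic, each without a version; the genome build, the counting tool, its strand setting and its rule for shared reads were not given in the sources used here. The deposited gene model file, whose values are feature positions of another kind than counts per the file's columns, served only to order intervals from 5' to 3'. The 22679 intervals were summed to 3861 genes, and all 34 members were found in a RefSeq table of gene names.

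Counts were tested with edgeR 4.0.16 (limma 3.58.1, R 4.3.3). The filter filterByExpr (minimum count 10, minimum total 15) kept 3793 genes and removed 68. The quasi-likelihood model had 1 term for each group and TMM scaling, over all 25 libraries, with 20 residual degrees of freedom and a common coefficient of variation of 51.4%. Tests were two-sided; calls needed an adjusted p (Benjamini-Hochberg, all tested genes) under 0.05. CPM use TMM-scaled totals, and ± after a log2 fold change is its standard error. Alternatives were DESeq2 1.42.0, DESeq2 size factors, no filter, the compared groups alone, intervals of the main scaffold, the genetic line as block, fits without the 2 shallow libraries, without these and diapause 1, and without each library in turn; a fit without the high libraries founder post CO2 1 and founder post diapause 1 was added after seeing the data. Over all tested genes, deviations of same-line libraries from their group means had a median r of 0.06 over 46 pairs, from -0.75 to 0.69. Pairs of different lines had a median of -0.02 over 204 pairs, from -0.71 to 0.81. An r over 0.1 was found in 22 of the 46 and 88 of the 204 pairs. Tables and figures used Python 3.11.15, numpy 2.4.6, pandas 2.3.3 and matplotlib 3.10.9, and the fits were tested on simulated data.

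Members and lists were chosen with earlier results of these data known. Named with full values were, by a fixed rule, the 3 called members of lowest p in each direction of each comparison and, per role, the member of lowest p and that of highest level per length, 23 in all; the other 11 were added after their values were seen, so that every member is accounted for.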

Additional observations from a re-analysis of the deposited data

Results flagged for a closer look

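In 115 groups, the 23 members named by rule in each of 5 groups of 5 queens, 20 single values lay far from the other 4, their gap to the nearest value being over 0.71 of the whole range. Chance gives about 1 in 20 groups for independent, normally distributed values. These were CPM without logs, of members measured in the same queens, so the count cannot be set against that rate. No cause was tested. Values are CPM.

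Diapause 1 was the high queen in 6 members. It had 4121 in heat shock protein 83-like LOC100645524 (others 1285 to 1769.7), 589.9 in LOC100645819 (338 to 403), and 124 in DNAJC30 (42.4 to 59.9). It had 90.6 in prefoldin subunit 2 (38.8 to 53.5), 59.7 in SEC11C (9.30 to 20.2) and 55.1 in signal recognition particle 9 kDa protein (31.4 to 33.9). Diapause 5 was high in calnexin, at 500.4 (412 to 433).

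Founder post CO2 1 was high in 3 members, with 666 in prefoldin subunit 4 (others 126 to 186), 237 in the receptor subunit beta of the signal recognition particle (61.5 to 104) and 968 in translocon-associated protein subunit beta (115 to 339). Founder post CO2 3 had 409 in prefoldin subunit 2 (111 to 158). Founder post diapause 1 had 284 in signal peptidase subunit 1 (91.8 to 146) and 786 in heat shock factor-binding protein 1 (255 to 382), and founder post diapause 3 had 1907 in LOC100645819 (765 to 1060.2).

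Both shallow libraries were high in DNAJC16: mated 2 had 219 (others 91.3 to 112) and CO2-treated 3 had 197 (87.1 to 99.5). CO2-treated 3 was low in prefoldin subunit 2, at 42.2 (78.9 to 88.2), and in signal peptidase subunit 1, at 40.6 (65.6 to 73.1). Mated 5 had 230.1 in translocon-associated protein subunit beta (93.0 to 129), and CO2-treated 4 had 1325 in protein disulfide-isomerase A6 (445 to 678).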

How the results depend on the processing

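No log2 fold change of the 23 members named by rule changed sign while called. In founder post diapause against diapause the 29 calls became 25 to 31 under the other settings and 23 to 30 without 1 library. CO2-treated against mated and founders against each other gave 0 member calls under every setting run, single libraries left out included (0 to 0). Between founders DESeq2 gave no adjusted p for most members, which counted as not called. For diapause against mated the count of 0 became 3 with DESeq2, 14 without the 2 shallow libraries and diapause 1 and 2 without the 2 high founder libraries, and 0 to 11 without 1 library, 11 being without diapause 1, 2 without founder post CO2 1 and 1 without mated 2 or founder post diapause 1. For diapause against CO2-treated it became 4 with DESeq2, 1 without the 2 shallow libraries, 13 without these and diapause 1 and 4 without the high founders, and 0 to 12 without 1 library, 12 being without diapause 1, 3 without founder post CO2 1 and 1 without founder post CO2 3 or founder post diapause 1. For founder post CO2 against CO2-treated the 4 calls became 8 with DESeq2, 0 with the 2 groups alone, and 1 without the shallow libraries, without these and diapause 1 and without the high founders, and 0 to 9 without 1 library. For the difference between routes 0 became 2 with DESeq2, 12 without the 2 shallow libraries and diapause 1, and 0 to 7 without 1 library, 7 being without diapause 1, 3 without founder post CO2 1 and 1 without founder post CO2 3. Any difference among the groups was called in 26 members, or 19 to 31 without 1 library. Shares or counts over all genes stand in the paragraphs above. Member counts without one are not read as results about the members. The cause was not tested. With the genetic line as block the member calls were 26 in founder post diapause against diapause, 1 in founder post CO2 against CO2-treated and 0 in the other 4 comparisons and in the difference between routes. Under the block 19.8% of all genes were called in founder post CO2 against CO2-treated queens. For the other block counts the share of all genes is not given here. The block changed no other call than those given. Same-line libraries had a median r near that of different lines, but a median over all genes does not show how single members followed the line. Why calls were lost under the block was not tested. Totals of 534806 and 586405 counts limit CO2-treated 3 and mated 2, where DNAJC11 (LOC100642273) rests on 6 and 4 reads.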
